A study of Mus musculus with 12 samples.

Results

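The genes described here run the cell division cycle: 16 genes of DNA replication and its licensing, 24 genes of mitosis, and the G1 regulators Ccnd1 and Cdkn1a, 42 in all of 25230 genes in the table. They were chosen by name, and a member was tested when it reached 1 TPM (the deposited transcript level, scaled to gene length and library size) in at least 3 libraries. That left 37 members among 11283 tested genes: 14 of the replication genes, 21 of the mitosis genes and both G1 regulators. The cells were mouse bone marrow derived macrophages, grown from flushed marrow with M-CSF for 8 days, and their polyadenylated RNA was sequenced. The 4 groups, with 3 libraries each, were Piezo1 knockout cells with Candida albicans, Piezo1 knockout cells with PBS, wild-type cells with C. albicans and wild-type cells with PBS. Knockout libraries labelled as PBS by treatment carry DMSO in their titles, and the sources used here do not settle the vehicle. This touches the knockout response, the knockout effect with PBS and the difference between responses. The driver of the deletion, the strain, the age of the mice and the time with the fungus are likewise not stated there, and nothing says that replicates came from separate mice or cultures, so p-values measure the spread between these libraries.

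Dividing cells first license replication origins by loading the MCM helicase, then copy DNA with the sliding clamp PCNA, and later separate the chromosomes on a spindle under the control of Cdk1 and its cyclins. Replication genes are classic targets of E2F factors, whereas many mitosis genes are repressed in resting cells by the DREAM complex through a short promoter element, the CHR. Macrophages grown in M-CSF divide while they differentiate and leave the cycle as they mature or meet microbial products, with p21 (Cdkn1a) as a known brake.

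Promoter sequences are shown first, because the members differed by class in the elements they carry. Each is a RefSeq window of 300 bases, 250 before and 50 after the annotated start, on build GRCm38.p6 and written 5′ to 3′ on the gene's strand. Windows were at hand for 34 of the 42 members. Capitals mark letters that match an E2F site (TTTCCCGC, TTTCGCGC, TTTGCCGC or TTTGGCGC), the CHR (TTTGAA) or a CCAAT box (CCAAT) on either strand, so TTCAAA and ATTGG are the CHR and the CCAAT box on the other strand. A match is a description of letters and not a bound site.

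The first set holds 3 of the replication genes named in the comparisons below: Mcm5 at chr8:75109259-75109558 (plus strand), Mcm7 at chr5:138171834-138172133 (minus strand) and Pcna at chr2:132253131-132253430 (minus strand). RefSeq has a second Mcm7 window at chr5:138171217-138171516, which held 1 CCAAT box and none of the E2F letters and is not printed. In Mcm5 a pair of E2F matches overlaps, and in the Mcm7 window shown an E2F match overlaps a CCAAT box. The Pcna window held a CCAAT box and none of the E2F letters searched.
Mcm5: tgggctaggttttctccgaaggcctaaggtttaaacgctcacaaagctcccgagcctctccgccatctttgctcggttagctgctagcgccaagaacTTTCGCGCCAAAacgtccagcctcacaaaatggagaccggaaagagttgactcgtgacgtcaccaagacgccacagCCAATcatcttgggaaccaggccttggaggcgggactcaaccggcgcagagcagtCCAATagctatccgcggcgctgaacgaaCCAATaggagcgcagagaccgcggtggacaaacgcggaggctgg
Mcm7: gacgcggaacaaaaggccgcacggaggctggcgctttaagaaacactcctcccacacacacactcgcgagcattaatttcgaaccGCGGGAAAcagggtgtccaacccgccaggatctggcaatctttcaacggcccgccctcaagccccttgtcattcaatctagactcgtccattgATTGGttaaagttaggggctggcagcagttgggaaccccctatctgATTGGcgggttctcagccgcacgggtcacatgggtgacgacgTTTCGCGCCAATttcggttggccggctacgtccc
Pcna: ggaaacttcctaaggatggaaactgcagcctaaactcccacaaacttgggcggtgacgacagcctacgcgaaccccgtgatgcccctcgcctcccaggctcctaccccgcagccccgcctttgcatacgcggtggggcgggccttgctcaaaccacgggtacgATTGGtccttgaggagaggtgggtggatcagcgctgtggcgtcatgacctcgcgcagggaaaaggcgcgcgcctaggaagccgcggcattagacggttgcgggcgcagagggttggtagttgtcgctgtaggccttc

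The second set holds 4 mitosis genes: Mki67 at chr7:135716330-135716629 (minus strand), Cdc20 at chr4:118437294-118437593 (minus strand), Plk1 at chr7:122159185-122159484 (plus strand) and Cenpa at chr5:30666636-30666935 (plus strand). All 4 windows held both a CHR and a CCAAT box, and none held the E2F letters searched.
Mki67: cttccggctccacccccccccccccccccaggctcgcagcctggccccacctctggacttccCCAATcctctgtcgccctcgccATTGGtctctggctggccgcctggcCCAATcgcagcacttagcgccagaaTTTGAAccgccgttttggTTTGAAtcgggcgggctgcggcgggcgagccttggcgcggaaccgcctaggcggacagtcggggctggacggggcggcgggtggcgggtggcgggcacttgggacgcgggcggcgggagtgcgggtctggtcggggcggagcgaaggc
Cdc20: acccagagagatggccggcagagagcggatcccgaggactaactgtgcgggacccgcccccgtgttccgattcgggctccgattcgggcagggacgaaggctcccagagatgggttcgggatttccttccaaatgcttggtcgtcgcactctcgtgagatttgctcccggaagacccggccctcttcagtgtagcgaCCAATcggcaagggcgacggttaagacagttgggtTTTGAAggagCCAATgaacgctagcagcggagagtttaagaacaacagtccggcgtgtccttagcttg
Plk1: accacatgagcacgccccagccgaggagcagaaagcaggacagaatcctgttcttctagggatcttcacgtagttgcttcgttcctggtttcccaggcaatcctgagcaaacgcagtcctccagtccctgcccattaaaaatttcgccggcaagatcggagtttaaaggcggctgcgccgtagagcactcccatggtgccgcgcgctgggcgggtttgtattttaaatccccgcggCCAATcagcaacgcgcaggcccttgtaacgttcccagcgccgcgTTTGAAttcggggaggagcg
Cenpa: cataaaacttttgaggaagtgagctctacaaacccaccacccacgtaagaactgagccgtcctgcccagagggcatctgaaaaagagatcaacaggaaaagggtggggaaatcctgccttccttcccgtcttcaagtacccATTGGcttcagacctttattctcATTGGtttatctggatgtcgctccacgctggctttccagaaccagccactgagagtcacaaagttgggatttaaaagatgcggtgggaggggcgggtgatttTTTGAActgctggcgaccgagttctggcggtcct

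A gene with more than 1 window was counted when any of them held the letters. Across the classes, the CHR letters were in 15 of 20 mitosis genes with a window (75%), 1 of 13 replication genes (7.69%) and 14.3% of 8977 tested genes with a window. E2F letters were in 6 of 13 replication genes (46.2%), 1 of 20 mitosis genes (5%) and 4.9% of the tested genes. CCAAT was in 18 of 20 mitosis genes (90%), 8 of 13 replication genes (61.5%) and 43.1% of the tested genes. The replication genes with E2F letters were Cdc6, Cdt1, Mcm3, Mcm5, Mcm6 and Mcm7, and the mitosis gene was Cdk1. Cdkn1a, the only G1 regulator with a window, held none of the motifs in these windows.

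**Figure D1:**
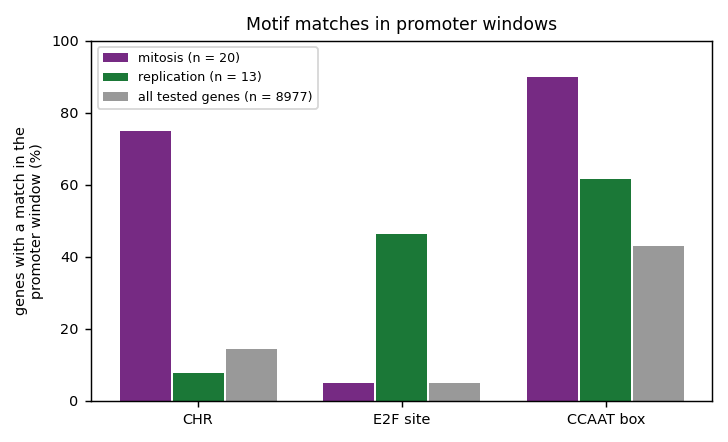
Share of genes (%) with the CHR, an E2F site or a CCAAT box in the 300-base promoter window, for mitosis genes (20 with a window), replication genes (13) and all tested genes (8977). The CHR bar is tallest for mitosis genes (75%) and the E2F bar for replication genes (46.2%).

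The macrophages held the replication machinery at much higher levels than the mitotic one. Averaged over the 12 libraries, the median member had 10.5 TPM among replication genes and 1.90 TPM among mitosis genes. Of the mitosis genes, 23 of 24 averaged below 10 TPM and 13 of 24 below 2 TPM, against 7 and 4 of the 16 replication genes. Such levels rest on few reads in a library: 5 to 37 for Plk1 and 6 to 39 for Ube2c, against 3810 to 7452 for Pcna. In bulk RNA, fewer cells expressing a gene and less of its RNA per cell cannot be told apart.

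Pcna, the clamp that holds polymerases on DNA, was the most abundant replication gene at 396 to 608 TPM. Cdt1, which loads MCM at origins, had 86.7 to 119 TPM, and Gmnn, the geminin that binds and inhibits Cdt1, had 37.1 to 55.6 TPM. Cdt1 lies 16686 bases from Piezo1 on chromosome 8, and the annotated readthrough gene Gm20388 overlaps it on the same strand, so its reads may not all be its own.

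The MCM helicase is a ring of 6 subunits. Mcm3 had 18.3 to 26.9 TPM, Mcm6 18.8 to 24.9 TPM, Mcm4 13.1 to 17.4 TPM, Mcm2 7.53 to 13.5 TPM, Mcm7 5.5 to 11.2 TPM and Mcm5 5.65 to 8.08 TPM. Neighbours in that order overlapped in range, except Mcm6 and Mcm4. E2f1, the transcription factor of the G1/S genes, had 16.6 to 22.6 TPM and Rrm1, the large subunit of ribonucleotide reductase, 7.99 to 12.5 TPM.

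Other S-phase genes were low. Rrm2, the small subunit of ribonucleotide reductase, had 0.556 to 2.54 TPM, Tyms, which makes thymidylate, 1.15 to 2.24 TPM and Ccne1, the cyclin E1 that drives S-phase entry with Cdk2, 1.47 to 6.05 TPM. Cdc6, a loader of MCM, stayed at 0.228 to 0.699 TPM and Ccne2, cyclin E2, at 0.279 to 0.615 TPM, so neither was tested.

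Among mitosis genes Cenpa stood apart, at 20.4 to 48.4 TPM. It encodes the histone H3 variant that marks centromeres. The next was Cdca8 (borealin, of the chromosomal passenger complex) at 5.08 to 10.4 TPM, followed by Aurka, a spindle-pole kinase, at 4.75 to 7.19 TPM.

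Kif23, a motor of cytokinesis, had 3.65 to 6.95 TPM and Tpx2, a spindle assembly factor that activates Aurka, 3.8 to 5.81 TPM. Cdk1, the mitotic kinase, had 3.82 to 5.33 TPM, with its cyclins Ccnb1 at 1.86 to 3.42 TPM, Ccnb2 at 0.501 to 2.82 TPM and Ccna2 at 0.699 to 1.56 TPM. Bub1b, a spindle checkpoint protein, had 1.68 to 3.99 TPM and Aurkb, the kinase of the passenger complex, 1.18 to 2.82 TPM. Kif23, Tpx2 and Cdk1 overlapped in range, as did Ccnb1, Bub1b and Aurkb.

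The spindle genes Prc1 (midzone bundling, 1.24 to 2.59 TPM), Kif20a (cytokinesis motor, 1.03 to 1.93 TPM), Cenpe (kinetochore motor, 1.09 to 1.98 TPM), Kif11 (spindle bipolarity motor, 0.709 to 2.16 TPM) and Nusap1 (spindle microtubules, 0.524 to 1.33 TPM) averaged below 2 TPM. The untested Bub1 (checkpoint kinase) had 0.292 to 0.812 TPM, Birc5 (survivin, of the passenger complex) 0.274 to 1.04 TPM and Cenpf (kinetochore) 0.0289 to 0.296 TPM. Just inside the filter were Plk1 with 3 libraries at 1 TPM, all of them wild-type PBS, Nusap1 with 4 and Rrm2 with 6; just outside was Birc5 with 1. Plk1 passed through the wild-type PBS libraries alone, so the filter itself favours its being high there.

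**Figure D2:**
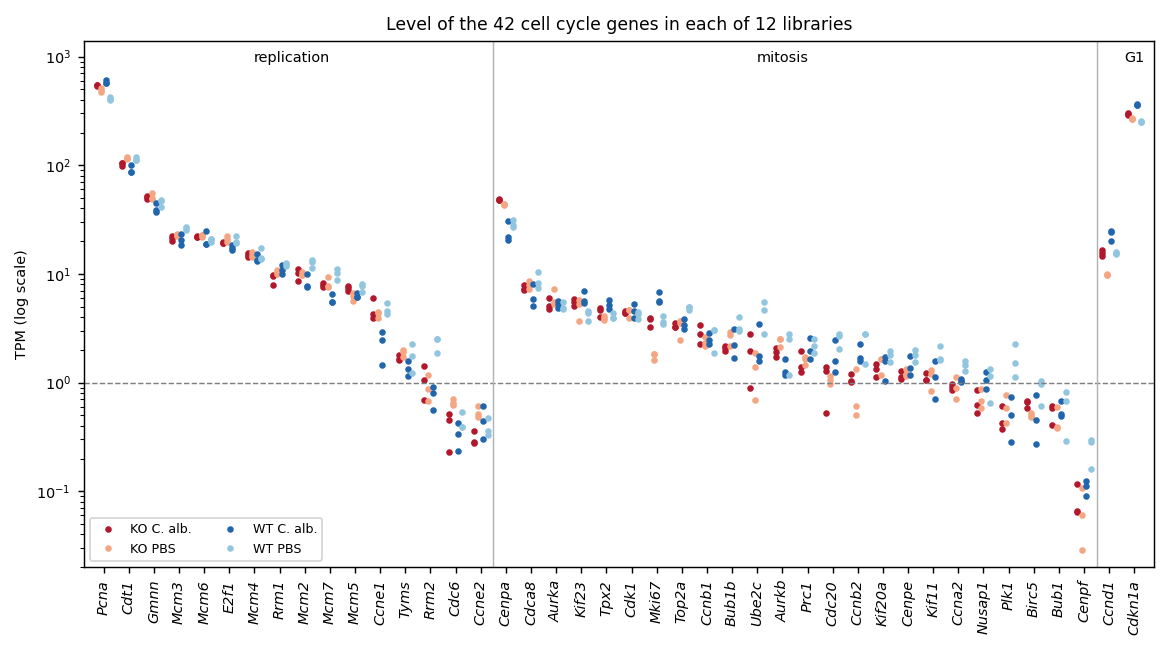
Level in TPM (log axis) of each of the 42 members in each of the 12 libraries, with members ordered by mean within the class and the dashed line at 1 TPM. Pcna and Cdt1 lead the replication genes, Cenpa is the only mitosis gene that averages above 10 TPM, and Cdkn1a is far above Ccnd1.

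Wild-type macrophages with C. albicans held less Mcm2, Mcm3, Mcm7, Rrm2 and Ccne1 and more Pcna, Mki67, Ccnd1 and Cdkn1a than wild-type cells with PBS. In this comparison 6 of the 37 tested members passed upward, where 16.1% of all tested genes did, and 11 passed downward, where 28.3% did; passing means an adjusted p under 0.05 in limma, fitted to log2(TPM + 1) over all tested genes. Those shares are near the background in both directions. By class, 8 of 14 replication genes were lower and 1 higher, 3 of 21 mitosis genes were lower and 3 higher, and both G1 regulators were higher. The median log2 fold change was -0.22 for replication genes, -0.23 for mitosis genes and -0.07 for all tested genes. Of all calls 36.2% were upward, and 55.5% after median-ratio scaling. Without overlap between the groups, 6 members were higher and 12 lower, where 18.3% and 32.6% of all tested genes were. In the authors' deposited table the same 6 members were higher, where 18.6% of genes were, and 8 were lower, where 14.1% were, all 8 among the 11 here.

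Mcm7 was the MCM subunit with the largest fall. It had 6.57, 5.5 and 5.5 TPM in wild-type cells with C. albicans and 8.82, 10.1 and 11.2 TPM in wild-type cells with PBS, and every C. albicans library was below every PBS library (log2 fold change -0.69 ± 0.10 (SE), adjusted p = 1.2e-04). Mcm2 had 9.9, 7.79 and 7.53 TPM with C. albicans and 12.9, 13.5 and 11.3 TPM with PBS, again without overlap (-0.54 ± 0.11, adjusted p = 0.00141). Mcm3 averaged 20.7 ± 2.46 TPM with C. albicans and 26.2 ± 0.789 TPM with PBS (SD, n = 3 each; log2 fold change -0.34, adjusted p = 0.00221). Of the other subunits, Mcm4 (-0.11) and Mcm6 (0.01) did not pass. Mcm5 passed narrowly (-0.23, adjusted p = 0.041), and lost its call when knockout C. albicans replicate 1, knockout PBS replicate 3, wild-type C. albicans replicates 1 and 2 or wild-type PBS replicates 2 and 3 was left out (adjusted p 0.0518 to 0.138).

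Rrm2 fell to 0.80, 0.556 and 0.904 TPM with C. albicans, against 2.54, 1.87 and 2.53 TPM with PBS (-0.92 ± 0.17, adjusted p = 9.3e-04). Its partner subunit Rrm1 did not pass (-0.15). Ccne1 had 1.47, 2.94 and 2.46 TPM with C. albicans and 5.39, 4.24 and 4.6 TPM with PBS, with no overlap (-0.83 ± 0.17, adjusted p = 0.00181). Cdt1 averaged 91.8 ± 8.22 TPM with C. albicans and 114 ± 3.83 TPM with PBS (-0.32, adjusted p = 5.2e-04), whereas Gmnn (-0.17) and Tyms (-0.21) did not pass. E2f1 averaged 17.4 ± 0.897 TPM with C. albicans and 20.4 ± 1.87 TPM with PBS (-0.21, adjusted p = 0.02). The E2f1 call was lost when wild-type C. albicans replicates 2 and 3 or wild-type PBS replicate 3 was left out (adjusted p 0.0518 to 0.0829).

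Pcna was the only replication gene that passed upward. It rose to 608, 573 and 574 TPM in wild-type cells with C. albicans, against 427, 411 and 396 TPM in wild-type cells with PBS (0.51 ± 0.04, adjusted p = 3.2e-07). Besides replication, the clamp serves DNA repair, and its partner Cdkn1a rose beside it. Cdkn1a had 360, 357 and 365 TPM with C. albicans and 253, 249 and 256 TPM with PBS (0.51 ± 0.03, adjusted p = 1.9e-08). Ccnd1, the cyclin D1 that growth factors induce in G1, had 20.2, 24.8 and 24.2 TPM with C. albicans and 15.4, 16.1 and 15.2 TPM with PBS (0.54 ± 0.07, adjusted p = 8.6e-05). In all 3 genes every C. albicans library was above every PBS library.

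Mitosis genes passed in both directions in wild-type cells. Mki67, which encodes the Ki-67 protein that coats mitotic chromosomes and is used as a marker of cycling cells, rose to 6.83, 5.66 and 5.55 TPM with C. albicans, against 4.14, 3.61 and 3.49 TPM with PBS (0.56 ± 0.10, adjusted p = 8.6e-04). Top2a, the topoisomerase that untangles chromosomes and another common marker of cycling cells, fell to 3.82, 3.37 and 3.12 TPM, against 5.01, 5.0 and 4.69 TPM with PBS (-0.41 ± 0.11, adjusted p = 0.0106). The groups did not overlap in either gene, and the directions were opposite. Plk1, a kinase of mitotic entry, had 0.281, 0.73 and 0.501 TPM with C. albicans and 1.13, 2.27 and 1.52 TPM with PBS (-0.80 ± 0.19). It met the filter through the wild-type PBS libraries alone, so its p is not given, although it counts among the lower mitosis genes.

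Kif23 averaged 5.97 ± 0.855 TPM with C. albicans and 4.2 ± 0.49 TPM with PBS (0.42, adjusted p = 0.0228), a call lost when wild-type C. albicans replicate 1 or wild-type PBS replicate 2 was left out (adjusted p 0.0786 to 0.0885). Tpx2 averaged 5.25 ± 0.537 TPM with C. albicans and 4.08 ± 0.236 TPM with PBS (0.30, adjusted p = 0.0195), a call lost when wild-type C. albicans replicate 1 or wild-type PBS replicates 1 and 2 was left out (adjusted p 0.0561 to 0.066). Cdca8, lower at -0.40 (adjusted p = 0.0332), lost its call when wild-type C. albicans replicates 2 and 3 or wild-type PBS replicates 2 and 3 was left out (adjusted p 0.0542 to 0.145). The other 15 tested mitosis genes did not pass, with log2 fold changes between -0.71 (Ube2c) and 0.10 (Cdk1). A library that stands apart, described further on, bears on these counts: without it 4 members were higher and 16 lower, where 16.6% and 31.4% of all tested genes were.

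**Figure D3:**
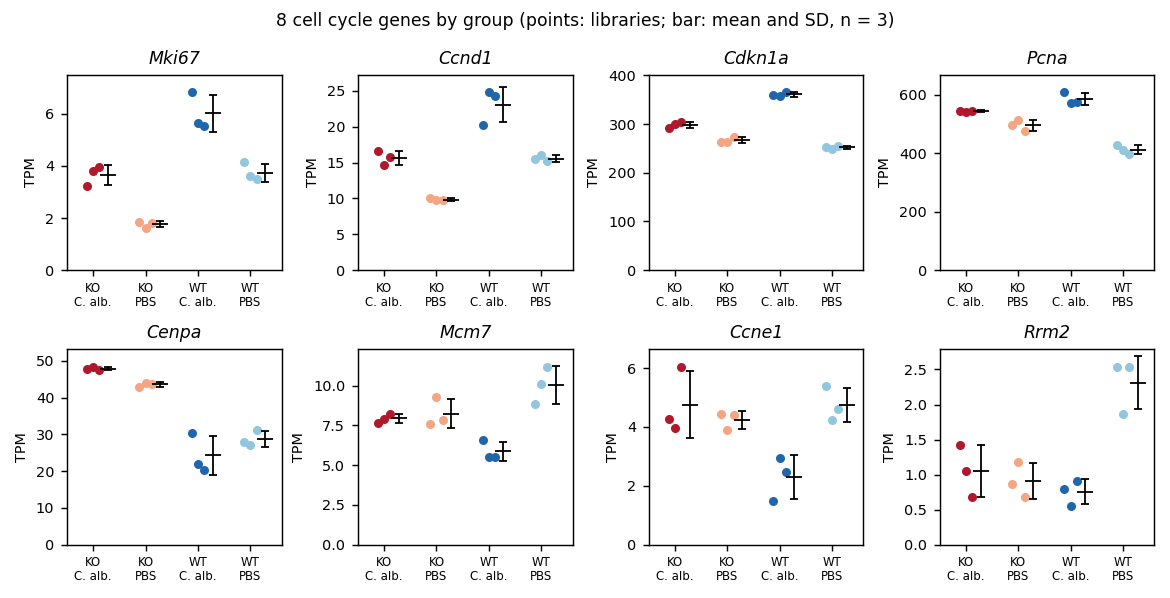
TPM of 8 members in each library (points), with mean and SD (n = 3) beside them, for knockout and wild-type cells with C. albicans or PBS. Mki67 and Ccnd1 are higher with C. albicans in both genotypes, Cenpa is higher in knockout cells with either treatment, and Rrm2 is high in wild-type PBS cells.

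Knockout macrophages with C. albicans changed few of these genes relative to knockout cells with PBS. Of the 37 members 4 were higher, where 3.94% of all tested genes were, and 0 were lower, where 3.14% were. The limma fit gave 5 higher and 1 lower at an unadjusted p under 0.05, and limma with voom weights gave 4 and 0. Of all 11283 tested genes 955 were higher and 1702 lower unadjusted, and 768 and 248 with voom weights. One replication gene (Pcna), 1 mitosis gene (Mki67) and both G1 regulators made up the calls. The medians were -0.03 for replication genes, 0.01 for mitosis genes and -0.04 for all tested genes. Of all calls 55.7% were upward, against 78% after median-ratio and 69.7% after upper-quartile scaling, where the replication median was 0.014 and 0.001. Without overlap between the groups, 6 members were higher and 5 lower, where 11.9% and 21.1% of all tested genes were.

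Mki67 rose to 3.24, 3.82 and 3.96 TPM in knockout cells with C. albicans, against 1.85, 1.63 and 1.83 TPM in knockout cells with PBS (0.75 ± 0.10, adjusted p = 5.1e-04). Ccnd1 rose to 16.6, 14.6 and 15.7 TPM, against 10.1, 9.74 and 9.74 TPM with PBS (0.62 ± 0.07, adjusted p = 1.3e-04). Both differences exceeded the spread between libraries, with no overlap. Cdkn1a had 292, 299 and 304 TPM with C. albicans and 264, 264 and 274 TPM with PBS (0.16 ± 0.03, adjusted p = 0.00371).

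Pcna had 545, 539 and 545 TPM in knockout cells with C. albicans and 495, 514 and 476 TPM in knockout cells with PBS (0.13 ± 0.04, adjusted p = 0.048). The groups did not overlap, but the call was lost when knockout C. albicans replicates 1, 2 and 3, knockout PBS replicates 1 and 3, wild-type C. albicans replicates 2 and 3 or wild-type PBS replicate 2 was left out (adjusted p 0.0554 to 0.194). Over all tested genes 28.3% passed downward in the wild-type response and only 3.14% in the knockout response. None of the 11 members that fell in wild-type cells passed here. Their log2 fold changes were -0.18 for Cdt1 (adjusted p = 0.0629), -0.12 for Plk1, -0.10 for Mcm3, -0.09 for E2f1, -0.08 for Cdca8, -0.04 for Mcm7, -0.01 for Mcm2, 0.05 for Top2a, 0.10 for Rrm2, 0.12 for Ccne1 and 0.21 for Mcm5 (adjusted p = 0.139).

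The difference between the responses was tested directly, as the knockout response less the wild-type response. It passed upward for 5 members, where 7.52% of all tested genes did, and downward for 2, where 6.33% did. The 5 upward were the replication genes Mcm2, Mcm5, Mcm7, Rrm2 and Ccne1, and the 2 downward were Pcna and Cdkn1a. No mitosis gene passed in this limma fit, with 4 upward and 0 downward at an unadjusted p under 0.05, and 1 and 0 with voom weights. Of all 11283 tested genes 1754 passed upward and 1410 downward unadjusted, and 812 and 1105 with voom weights. The medians were 0.14 for replication genes, 0.19 for mitosis genes and 0.02 for all tested genes. Of all calls 54.3% were upward, against 41.2% after median-ratio scaling.

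Mcm7 responded at -0.04 in the knockout and -0.69 in wild type, a difference of 0.64 ± 0.14 (adjusted p = 0.00875). Rrm2 responded at 0.10 in the knockout and -0.92 in wild type (difference 1.01 ± 0.24, adjusted p = 0.0158), on 11 to 46 reads per library. Its mean was already low in knockout cells with PBS, at 0.908 TPM. Wild-type cells had 2.31 TPM with PBS and 0.75 TPM with C. albicans. Ccne1 responded at 0.12 in the knockout and -0.83 in wild type (difference 0.95 ± 0.24, adjusted p = 0.0215). In these 3 genes the knockout groups overlapped while the wild-type groups were apart. The Ccne1 difference lost its call when knockout C. albicans replicate 3 was left out (adjusted p 0.0505).

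For Pcna the rise was smaller in the knockout, 0.13 against 0.51 in wild type (difference -0.37 ± 0.05, adjusted p = 5.4e-04). Cdkn1a rose by 0.16 in the knockout and 0.51 in wild type (difference -0.35 ± 0.04, adjusted p = 1.2e-04). Mki67 and Ccnd1 rose in both genotypes, and their differences did not pass (0.19, adjusted p = 0.433, and 0.08, adjusted p = 0.656). Mcm2 (difference 0.53, adjusted p = 0.0351) lost its call when knockout C. albicans replicates 2 and 3, knockout PBS replicates 1, 2 and 3, wild-type C. albicans replicates 2 and 3 or wild-type PBS replicates 1 and 2 was left out (adjusted p 0.0506 to 0.0834). Mcm5 (difference 0.44, adjusted p = 0.0263) lost its call when knockout C. albicans replicates 1 and 2, knockout PBS replicate 2, wild-type C. albicans replicate 2 or wild-type PBS replicates 2 and 3 was left out (adjusted p 0.0556 to 0.0659).

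**Figure D4:**
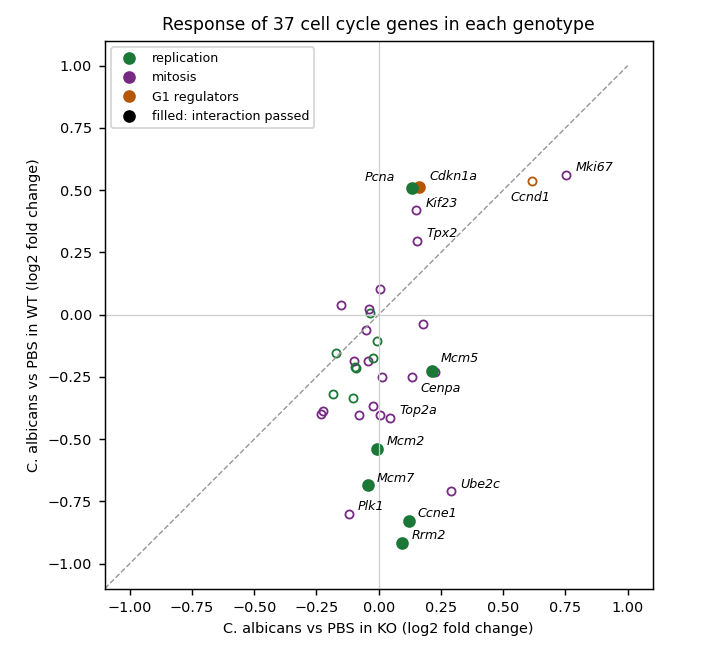
Log2 fold change with C. albicans against PBS in knockout cells (x) and wild-type cells (y) for the 37 tested members, coloured by class, on the log2(TPM + 1) scale; filled points passed the test of the difference and the dashed line marks equal responses. Mcm2, Mcm7, Rrm2 and Ccne1 lie below the line near 0 on the x axis, Pcna and Cdkn1a lie above it, and Mki67 and Ccnd1 are high on both axes.

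With C. albicans in both genotypes, knockout cells held more Cenpa, Ccne1, Mcm7 and Gmnn and less Mki67, Ccnd1 and Cdkn1a than wild-type cells. In all 5 members were higher, where 12.4% of all tested genes were, and 5 lower, where 27.5% were. Replication genes had 4 higher and 2 lower with a median of 0.18, mitosis genes 1 and 1 with a median of -0.10, and all tested genes a median of -0.05. Of all calls 31.1% were upward, against 46.9% after median-ratio and 58.1% after upper-quartile scaling. Under either of these scalings 7 replication genes were higher and 0 lower, with medians of 0.23 and 0.26. Of 11283 tested genes 2172 were higher and 2455 lower after median-ratio scaling, and 2823 and 2034 after upper-quartile scaling. Without wild-type C. albicans replicate 1, 9 members were higher and 3 lower, where 15.6% and 26.1% of all tested genes were. With every library, 8 members were higher and 8 lower without overlap between the genotypes, where 16% and 33.3% of all tested genes were.

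Cenpa had 47.8, 48.4 and 47.5 TPM in knockout cells and 30.4, 22.1 and 20.4 TPM in wild-type cells, the largest genotype difference among the members with C. albicans on the log2(TPM + 1) scale (0.97 ± 0.11, adjusted p = 1.8e-05). Ccne1 had 4.26, 3.96 and 6.05 TPM in knockout cells and 1.47, 2.94 and 2.46 TPM in wild-type cells (0.82 ± 0.17, adjusted p = 0.0021). As a ratio of mean TPM, Ccne1 differed more than Cenpa (2.08 against 1.97). Neither gene overlapped between genotypes. Mcm7 averaged 7.93 ± 0.285 TPM in knockout cells and 5.85 ± 0.619 TPM in wild-type cells (0.39, adjusted p = 0.00718). Gmnn averaged 50.8 ± 1.88 TPM in knockout cells and 40.2 ± 4.4 TPM in wild-type cells (0.33, adjusted p = 0.00394).

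Mki67 was lower in the knockout, at 3.67 TPM on average against 6.01 TPM in wild-type cells (-0.58 ± 0.10, adjusted p = 7.0e-04). It passed in all 21 alternatives, but its log2 fold change ran from -0.70 to -0.27 over them. Ccnd1 averaged 15.7 ± 0.993 TPM in knockout cells and 23.1 ± 2.46 TPM in wild-type cells (-0.53, adjusted p = 1.1e-04). Cdkn1a averaged 298 ± 5.94 TPM in knockout cells and 361 ± 4.15 TPM in wild-type cells (-0.27, adjusted p = 1.1e-05). Mki67, a marker of cycling, and Cdkn1a, an inhibitor of it, were both highest in the wild-type C. albicans libraries.

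Smaller differences passed with less stability. Pcna (-0.11, adjusted p = 0.0338) lost its call when knockout C. albicans replicates 1, 2 and 3 or wild-type C. albicans replicate 1 was left out (adjusted p 0.0715 to 0.091), and Rrm1 (-0.24, adjusted p = 0.0333) when knockout C. albicans replicate 2 or wild-type C. albicans replicates 1 and 2 was left out (adjusted p 0.0647 to 0.149). Both also missed the threshold under median-ratio and upper-quartile scaling. Cdt1 (0.17, adjusted p = 0.0291) lost its call when knockout C. albicans replicates 2 and 3 or wild-type C. albicans replicates 2 and 3 was left out (adjusted p 0.0801 to 0.117).

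With PBS in both genotypes, about as large a share of the members as of all tested genes was lower in knockout than in wild-type cells: 10 of 37 members were lower, where 26.1% of all tested genes were, and 3 were higher, where 6.14% were. Ccnd1, Rrm2, Mki67 and Ube2c were among the lower members, and Cenpa and Pcna among the higher. Mitosis genes had 6 lower and 1 higher with a median of -0.27, replication genes 3 lower and 1 higher with a median of -0.06, and all tested genes a median of -0.08. Of all calls 19% were upward, against 50.2% after median-ratio and 56.3% after upper-quartile scaling. The median of all tested genes was 0.006 after median-ratio and 0.023 after upper-quartile scaling. With these scalings the replication median changed sign. It was 0.026 with 2 genes higher and 1 lower after median-ratio scaling and 0.041 with 4 higher and 1 lower after upper-quartile scaling. Of 11283 tested genes 1606 were higher and 1595 lower after median-ratio scaling, and 1831 and 1423 after upper-quartile scaling. The same 7 mitosis genes passed in the same directions under both scalings. They include Plk1, which met the filter through the wild-type PBS libraries alone, and neither scaling changed that filter. Without overlap between the genotypes, 5 members were higher and 17 lower, where 10.1% and 36.1% of all tested genes were. The wild-type PBS libraries are also the baseline of the wild-type response, so a member high in them, such as Plk1 or Rrm2, is low in both comparisons.

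Ube2c, the ubiquitin-conjugating enzyme of the anaphase-promoting complex, had 1.38, 0.691 and 1.88 TPM in knockout cells and 5.53, 2.77 and 4.64 TPM in wild-type cells (-1.19 ± 0.30, adjusted p = 0.00892). Cdc20, which activates that complex, had 0.961, 1.14 and 1.05 TPM in knockout cells and 2.66, 2.06 and 2.82 TPM in wild-type cells (-0.77 ± 0.20, adjusted p = 0.00961). The genotypes did not overlap in either gene, on 6 to 39 and 10 to 42 reads per library. Ccnb2, a cyclin that is destroyed through that complex, had 0.501, 1.32 and 0.611 TPM in knockout cells and 2.82, 2.82 and 1.48 TPM in wild-type cells (-0.90 ± 0.20, adjusted p = 0.00495). Plk1 had 0.775, 0.581 and 0.425 TPM in knockout cells and 1.13, 2.27 and 1.52 TPM in wild-type cells (-0.71 ± 0.19). Its p is not given here either, because it met the filter through the wild-type PBS libraries alone, but it counts among the lower mitosis genes. The promoters of Ube2c, Cdc20, Ccnb2 and Plk1 held the CHR letters, like those of the other lower mitosis genes Mki67 and Top2a. So did that of Cenpa, which was higher, and those of Aurka, Bub1b, Cdca8, Cdk1, Kif11, Kif23 and Prc1, which did not pass. With the untested Cenpf, the letters were in 15 of 20 mitosis genes with a window (75%).

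Mki67 had 1.85, 1.63 and 1.83 TPM in knockout cells and 4.14, 3.61 and 3.49 TPM in wild-type cells (-0.78 ± 0.10, adjusted p = 1.6e-04). Top2a had 3.67, 2.49 and 3.5 TPM in knockout cells and 5.01, 5.0 and 4.69 TPM in wild-type cells (-0.49 ± 0.11, adjusted p = 0.0055). Both were apart between genotypes. Both genes have long transcripts, Mki67 at the 97.5 percentile of length among tested genes and Top2a at the 80.3 percentile. With the trend of each library over gene length removed, Mki67 still passed and Top2a did not, at a log2 fold change of -0.32. Over the 21 alternatives the Mki67 log2 fold change ran from -1.04 to -0.47.

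Cenpa had 42.9, 44.1 and 43.8 TPM in knockout cells and 28, 27.1 and 31.1 TPM in wild-type cells (0.59 ± 0.11, adjusted p = 0.00123), so it was higher in the knockout with either treatment. Pcna had 495, 514 and 476 TPM in knockout cells and 427, 411 and 396 TPM in wild-type cells (0.27 ± 0.04, adjusted p = 2.0e-04). Ccnd1 had 10.1, 9.74 and 9.74 TPM in knockout cells and 15.4, 16.1 and 15.2 TPM in wild-type cells (-0.61 ± 0.07, adjusted p = 7.1e-05), lower in the knockout with either treatment. None of these 3 genes overlapped between genotypes. Rrm2 had 0.865, 1.18 and 0.678 TPM in knockout cells and 2.54, 1.87 and 2.53 TPM in wild-type cells (-0.80 ± 0.17, adjusted p = 0.00358).

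Other calls with PBS were small. Cdkn1a was higher by 0.08 (adjusted p = 0.0412) and lost its call when knockout C. albicans replicates 2 and 3, knockout PBS replicates 1, 2 and 3, wild-type C. albicans replicates 2 and 3 or wild-type PBS replicates 1 and 2 was left out (adjusted p 0.0505 to 0.153). Mcm2 (-0.31, adjusted p = 0.0438) lost its call when knockout C. albicans replicate 3, knockout PBS replicates 1, 2 and 3 or wild-type PBS replicates 1 and 2 was left out (adjusted p 0.0562 to 0.143), and Mcm5 (-0.25, adjusted p = 0.0368) when knockout PBS replicates 2 and 3 or wild-type PBS replicates 2 and 3 was left out (adjusted p 0.0702 to 0.138). Neither Mcm2 nor Mcm5 passed under median-ratio or upper-quartile scaling.

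The mean log2(TPM + 1) of the 14 tested replication genes was 4.05, 4.05 and 4.07 in knockout cells with C. albicans and 4.08, 4.07 and 4.06 in knockout cells with PBS. It was 3.96, 3.81 and 3.85 in wild-type cells with C. albicans and 4.16, 4.18 and 4.18 in wild-type cells with PBS. The knockout groups thus overlapped and lay between the wild-type groups on TPM without further scaling. With PBS the median of all tested genes was also below 0 on that scale, at -0.083 in knockout against wild-type cells. As given above, the replication median of that comparison changed sign with median-ratio and upper-quartile scaling. The place of the knockout below the wild-type PBS libraries therefore depends on the scaling.

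For the 21 tested mitosis genes it was 1.83, 1.85 and 1.87 in knockout cells with C. albicans and 1.83, 1.74 and 1.85 in knockout cells with PBS. In wild-type cells it was 2.06, 1.90 and 1.79 with C. albicans and 2.15, 2.05 and 2.07 with PBS. Here both knockout groups lay below the wild-type PBS libraries, and the wild-type groups overlapped through 1 library. These means describe chosen members that passed a filter and carry no test.

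**Figure D5:**
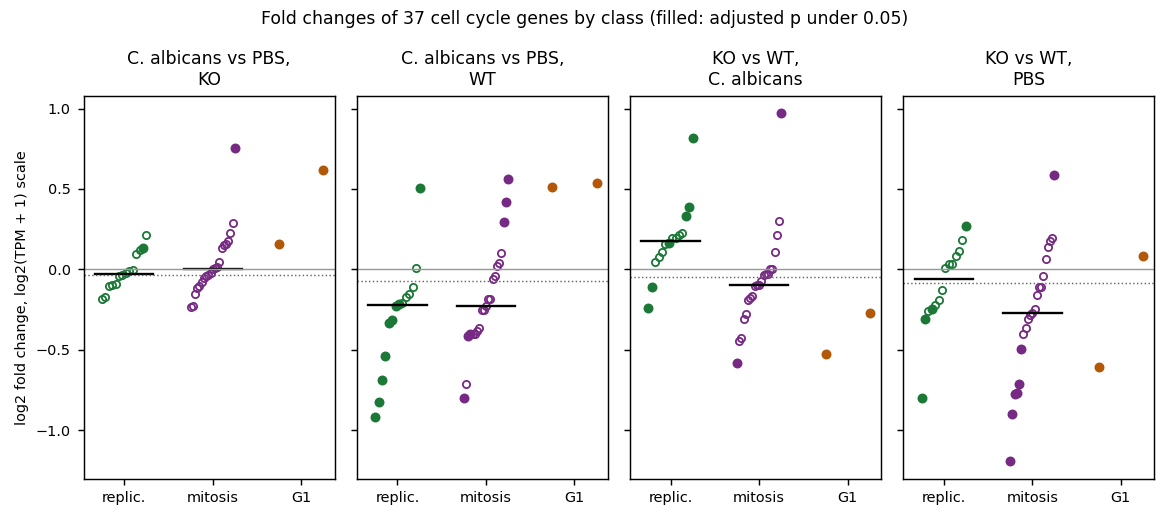
Log2 fold change of each tested member by class in the 4 comparisons, on the log2(TPM + 1) scale; filled points passed (adjusted p under 0.05), black bars are class medians and the dotted line is the median of all tested genes. In the wild-type response 8 of 14 replication genes were lower, where 28.3% of all tested genes were. In the knockout with PBS 6 of 21 mitosis genes were lower, near the 26.1% of all tested genes. Plk1, among those 6, met the filter through the wild-type PBS libraries alone.

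Other genes of the same pathways, from lists compiled by function, moved little in the knockout response. None of 42 tested genes of the wider replication list, 29 of the wider mitosis list, 14 of the E2F, RB and DREAM factors or 9 of the other G1 cyclins, CDKs and inhibitors passed in knockout cells in the limma fit. At an unadjusted p under 0.05 these lists had 2, 2, 0 and 0 higher and 1, 0, 2 and 1 lower in the same order. With voom weights 0 passed in any of the 4. Of all 11283 tested genes 445 were higher and 354 lower in the limma fit, 955 and 1702 unadjusted, and 768 and 248 with voom weights. In wild-type cells with C. albicans the replication list had 1 higher and 6 lower and the mitosis list 1 and 8, where 16.1% of all tested genes were higher and 28.3% lower.

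In wild-type cells with C. albicans, Rfc2, of the clamp loader, fell (log2 fold change -0.35, adjusted p = 1.8e-04), as did Pold1, of polymerase delta (-0.40, adjusted p = 0.00384). Incenp, the scaffold of the chromosomal passenger complex, fell (-0.43, adjusted p = 1.1e-04), as did Kif22, a chromosome motor (-0.87, adjusted p = 5.9e-04), while Cks2, a partner of Cdk1, rose (0.95, adjusted p = 2.7e-04). The difference between responses passed for Rfc2 (0.31, adjusted p = 0.017), Incenp (0.36, adjusted p = 0.0149) and Kif22 (0.83, adjusted p = 0.0236). These were the only genes of the wider replication and mitosis lists that passed it, 1 of 42 and 2 of 29. Of all tested genes 7.52% passed it upward and 6.33% downward.

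Among the 9 other G1 genes 3 were higher and 4 lower in wild-type cells with C. albicans, where 16.1% of all tested genes were higher and 28.3% lower. The D-type cyclins moved apart: Ccnd3 fell (-0.73, adjusted p = 1.6e-05) beside the rise of Ccnd1. Cdk6, their kinase partner, rose by 0.66 (adjusted p = 1.9e-05) and Cdkn1c, the inhibitor p57, by 0.76 (adjusted p = 2.0e-05). In the knockout the same genes had log2 fold changes of -0.06, 0.06 and 0.14, and the difference passed for each (0.67, -0.60 and -0.62; adjusted p = 0.00233, 0.00264 and 0.00519).

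Of the E2F, RB and DREAM factors, 2 of 14 were higher and 0 lower in wild-type cells with C. albicans, where 16.1% and 28.3% of all tested genes were. At an unadjusted p under 0.05 the list had 4 and 1, where 2096 and 3794 of 11283 tested genes passed. With voom weights it had 4 and 0, where 2645 and 2085 passed. The 2 higher in the limma fit were Lin54 (0.28, adjusted p = 0.0253) and Lin9 (0.25, adjusted p = 0.0467), subunits of the DREAM core. In knockout cells with PBS 3 of 14 were lower than in wild-type cells with PBS, no more than the 26.1% of all tested genes, with the smallest p for Rb1, the retinoblastoma repressor of E2F (-0.27, adjusted p = 0.00185). With C. albicans 3 of 14 were lower in the knockout, no more than the 27.5% of all tested genes, with the smallest p for E2f3 (-0.24, adjusted p = 0.00711).

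Targets of p53, the class to which Cdkn1a belongs, did not move one way. In wild-type cells with C. albicans 6 of 16 were higher and 5 lower, where 16.1% and 28.3% of all tested genes were, and in knockout cells 4 were higher and 2 lower, where 3.94% and 3.14% were. Plk2, a stress-induced kinase, rose by 0.57 in the knockout and 1.35 in wild type (adjusted p = 5.4e-08 and 4.9e-12; difference -0.78, adjusted p = 5.9e-07). Mdm2, the ligase that degrades p53, rose by 0.21 in the knockout and 0.80 in wild type (adjusted p = 0.00101 and 8.5e-10; difference -0.59, adjusted p = 6.8e-06). Btg2, an antiproliferative gene, rose by 0.97 in the knockout and 1.33 in wild type (adjusted p = 3.4e-04 and 4.1e-06), and its difference did not pass (-0.37, adjusted p = 0.205).

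M-CSF signalling sustains growth and survival of macrophages. Csf1, which encodes M-CSF, rose by 0.93 in the knockout and 1.71 in wild type (adjusted p = 4.1e-04 and 3.5e-07; difference -0.78, adjusted p = 0.0116). Csf1r, the M-CSF receptor, was lower in knockout than in wild-type cells with PBS (-0.19, adjusted p = 2.0e-04).

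As a check of the labels, Piezo1 had 64.9 ± 0.756 TPM in knockout cells with C. albicans against 136.9 ± 8.68 TPM in wild-type cells with C. albicans, and 65.4 ± 2.72 TPM in knockout cells with PBS against 134.6 ± 4.69 TPM in wild-type cells with PBS (SD, n = 3 each; log2 fold changes -1.06 and -1.03). The transcript was lower but not absent, and no source used here states which part was deleted. Libraries held 16400119 to 25741091 reads in genes. One library, wild-type C. albicans replicate 1, was unlike the other 2 of its group: chi-square over genes, divided by its degrees of freedom, came to 15.3 and 14.5 against them and to 1.49 to 4.40 in the other 10 pairs within groups. Its mitosis and replication means were the highest of its group. Without it, in the knockout with PBS against wild type, 4 members were higher and 13 lower, where 7.7% and 29.9% of all tested genes were, and 10 differences between responses passed upward and 2 downward, where 13.1% and 9.36% did.

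All 8 macrophage markers were detected, with summed levels of 15970 to 16080 TPM in knockout cells with C. albicans, 15420 to 15660 TPM in knockout cells with PBS, 21930 to 23370 TPM in wild-type cells with C. albicans and 25730 to 26280 TPM in wild-type cells with PBS. Lyz2 carried most of this sum, at means of 9432 TPM in knockout cells with C. albicans, 9099 TPM in knockout cells with PBS, 16260 TPM in wild-type cells with C. albicans and 19700 TPM in wild-type cells with PBS. Of the 8 markers, 3 were higher and 5 lower in the knockout with C. albicans, where 12.4% and 27.5% of all tested genes were. With PBS 1 was higher and 4 lower, where 6.14% and 26.1% were. Cd68 was higher in the knockout with either treatment. Of 8 myeloid progenitor markers, the dividing precursors, 7 never reached 1 TPM, Prtn3, Ctsg and Ms4a3 were at 0 in every library, and the sum was 0.557 to 1.31 TPM over all groups. Neutrophil markers summed to 9.35 to 15.8 TPM over all groups, with S100a9, Ly6g and Retnlg at 0. Erythroid, stromal and dendritic markers summed to at most 2.56 TPM. T cell markers summed to 10.7 to 12.6 TPM in knockout cells with C. albicans, 8.03 to 9.40 TPM in knockout cells with PBS, 12.8 to 16.5 TPM in wild-type cells with C. albicans and 17.0 to 18.6 TPM in wild-type cells with PBS, with Cd3e at 0 in every library and the only tested T cell marker being Cd4, which made up nearly all of the sum (means of 11.3, 8.05, 14.4 and 16.7 TPM in the same order). B cell markers summed to 1.09 to 1.92 TPM in knockout cells with C. albicans, 1.48 to 1.93 TPM in knockout cells with PBS, 0.258 to 0.876 TPM in wild-type cells with C. albicans and 2.86 to 4.20 TPM in wild-type cells with PBS. The T and B cell sums were highest in wild-type PBS libraries, and their part in the results was not tested.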

How the data were processed

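Polyadenylated RNA of 12 libraries was grouped by the genotype and treatment labels, 3 libraries in each of 4 groups. The build was mm10 and the tools named were STAR 2.7.5a, cutadapt 2.6, CASAVA 1.8 and the authors' DESeq2 1.34.0, per the submitters' processing notes. The sources used here do not say how reads were counted, with or without strand, or on which annotation. The authors deposited TPM per gene, which correct for length and library size, and mean normalised signal, log2 fold change, a Wald score and p-value columns from DESeq2, per the file headers. From the values, these columns compare C. albicans with PBS in wild-type cells. The intended count test was not used, because the deposited unit is TPM. The TPM and mean signal gave whole reads for 100% of 171648 nonzero values, within 0.01 of a read.

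Genes with at least 1 TPM in 3 libraries were tested on log2(TPM + 1) with limma 3.58.1 (R 4.3.3), using group means, a variance trend, no replicate block and 8 residual degrees of freedom. This scale understates changes of low genes. The p-values are two-sided and adjusted by Benjamini-Hochberg within each comparison over all 11283 genes. All members may be named, and of each pathway list up to 3 passing genes with the smallest p in a comparison. The members and lists were chosen with earlier results of these data known. One gene of a pathway list, and that list's counts, are not reported here. The fit was tested on simulated reads. Alternatives were another pseudocount, no filter, median-ratio and upper-quartile scaling, no variance trend, the replicate block, removal of the length trend, the compared groups alone, each library left out, and voom on the recovered reads, which was chosen after seeing the data. Kif20a, Cdc20, Ube2c, Ccna2, Cdca8, Prc1, Nusap1, Mcm7, Ccnd1 and the untested Ccne2 overlap protein-coding genes on the opposite strand. Mki67, Top2a, Plk1, Kif11, Cdkn1a and the untested Cenpf overlap other annotated genes there. Reads of all those pairs may not be told apart.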

Additional observations from a re-analysis of the deposited data

Results flagged for a closer look

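Of the 37 tested members, 7 responded differently to C. albicans in the 2 genotypes by the test of the difference itself, knockout response less wild-type response (limma, adjusted over 11283 genes). The test passed upward for 5 members, where 7.52% of all tested genes did, and downward for 2, where 6.33% did. The log2 differences were 1.01 for Rrm2, 0.95 for Ccne1, 0.64 for Mcm7, 0.53 for Mcm2, 0.44 for Mcm5, -0.37 for Pcna and -0.35 for Cdkn1a. Of these, Rrm2, Mcm7, Pcna and Cdkn1a passed in all 20 alternatives run for the difference, and Ccne1 in 18, Mcm5 in 13 and Mcm2 in 8 of 20.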

How the results depend on the processing

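No gene call changed direction under any alternative run, whereas some class medians did change sign, as given below. Of 51 gene calls, 35 passed under every alternative in which they could be fitted. Another 16 missed the threshold under at least 1, in 128 of 1058 gene-by-alternative combinations, and the cause was not tested. The calls of Plk1, counted among the 35, were fitted in 18 alternatives, where other calls between groups had 21. With any wild-type PBS library left out Plk1 missed the filter, so its calls were not tried there. The planned count tests were not run because the deposited values are TPM.

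In the knockout response the replication median was 0.014 with median-ratio scaling. When only the compared groups were fitted, 1 member was lower, where 760 of 11276 tested genes were. In the wild-type response that median was -0.29 with a pseudocount of 0.1, -0.16 with median-ratio scaling and -0.14 with the length trend removed. With C. albicans, in knockout against wild type, 3 members were lower with no filter, where 3036 of 17155 tested genes were. In that comparison 8 were higher and 3 lower with median-ratio scaling, upper-quartile scaling or voom. Of 11283 tested genes 2172 were higher and 2455 lower, 2823 and 2034, and 2201 and 2626 in the same order. With the length trend removed 8 members were higher, where 1557 tested genes were. The replication median there was 0.23, 0.26 and 0.26 with median-ratio scaling, upper-quartile scaling and voom. The mitosis median was -0.013 with upper-quartile scaling. With PBS, in knockout against wild type, 6 members were higher with upper-quartile scaling and 5 with voom. Of 11283 tested genes 1831 and 1516 were. The replication median was 0.026 with median-ratio scaling, 0.041 with upper-quartile scaling and 0.027 with voom. The mitosis median was -0.41 with a pseudocount of 0.1, -0.19 with upper-quartile scaling and -0.17 with the length trend removed. For the difference between responses, the mitosis median was 0.28 with a pseudocount of 0.1. With no filter 2 members passed it upward, where 661 of 17155 tested genes did.

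With 1 library left out, the knockout response had 3 to 4 members higher and 0 to 1 lower, replication medians of -0.05 to -0.03 and mitosis medians of -0.05 to 0.04. The wild-type response had 4 to 6 higher and 8 to 16 lower, with medians of -0.31 to -0.20 and -0.28 to -0.15. Knockout against wild type with C. albicans had 4 to 9 higher and 3 to 5 lower, with medians of 0.13 to 0.22 and -0.16 to -0.04, and with PBS 2 to 4 higher and 7 to 13 lower, with medians of -0.11 to -0.022 and -0.30 to -0.20. The difference between responses had 3 to 10 upward and 2 downward in each case, with medians of 0.10 to 0.22 and 0.11 to 0.27. Over all tested genes the counts ran from 315 to 664 higher and 98 to 826 lower in the knockout response. They were 1532 to 1872 and 2507 to 3536 in the wild-type response. Knockout against wild type gave 1035 to 1750 and 2632 to 3161 with C. albicans, and 511 to 866 and 2233 to 3361 with PBS. The difference passed upward for 546 to 1473 and downward for 484 to 1053, of 11233 to 11269 genes tested.

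Replicate numbers were not seen to pair the libraries: correlations of deviations between same-numbered libraries ran from -0.087 to 0.087 in 18 pairs. With the replicate block, 4 members were higher and 0 lower in the knockout response, 6 and 11 in the wild-type response, 5 and 5 with C. albicans, 3 and 8 with PBS in knockout against wild type, and 4 and 2 for the difference. In that order, the 11283 tested genes gave 424 and 292, 1788 and 3131, 1355 and 3047, 687 and 2860, 759 and 659. Low reads limit Plk1, Ube2c, Cdc20, Ccnb2 and Rrm2.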
